A study of Arabidopsis thaliana with 8 samples.

Results

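The xyloglucan endotransglucosylase/hydrolase (XTH) family was described here as its 33 genes, XTH1 to XTH33, found by locus tag among 26987 gene entries. All 33 were found in each of 4 full tables. RNA was sequenced from whole Arabidopsis seedlings of the Col-0 ecotype in 8 libraries, 1 library per condition, all on medium with sucrose. DAYi seedlings, which carry a dexamethasone (DEX)-inducible RNAi construct against DAY, were grown with ethanol (EtOH, mock) or with 1 µM DEX. Col-0 wild type and bri1-116, a mutant of the brassinosteroid (BR) receptor gene BRI1, were grown with mock. Each was harvested after 5 days in the dark or after 9 days under long days, so that light and age differ together. The comparisons ask how XTH transcript levels differ between DAYi with DEX and with EtOH, and between bri1-116 and Col-0. In the dark, DAY itself was not lower in the library labelled DEX, as given below.

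XTHs are cell wall enzymes that cut xyloglucan, a hemicellulose that coats and tethers cellulose microfibrils, and join the cut end to another xyloglucan chain or, for a few members, to water. The wall is loosened or strengthened in this way while cells expand, and many XTH genes respond to BR, auxin, light or touch. The family is usually written in 3 groups, which follow the gene numbers: group I (XTH1 to XTH11), group II (XTH12 to XTH26) and group III (XTH27 to XTH33).

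The family is recognised by a short stretch around its catalytic glutamates, and the coding bases of this stretch are shown for 10 members, to compare the 3 groups. They take in the 3 most abundant members of every library (from among XTH4, XTH7, XTH15, XTH24, XTH27 and XTH31) and 4 others. In 32 of 33 members a stretch of 27 coding bases was found, XTH11 being the exception, and the 32 stretches were all distinct. The capitals mark the codons of both catalytic glutamates. Sequences are from the RefSeq genome of build TAIR10.1, on the coding strand.
XTH4, chr2:2764493-2764519, plus strand: gacGAGatagactttGAGttccttgga
XTH7, chr4:17776854-17776880, minus strand: gacGAGcttgattttGAGttcttagga
XTH9, chr4:1416538-1416564, plus strand: aacGAAttcgattttGAGttcttaggg
XTH15, chr4:8137782-8137808, minus strand: gacGAGatagactttGAGtttctaggt
XTH17, chr1:24257682-24257708, plus strand: gatGAGatcgatttcGAGttcttggga
XTH24, chr4:14820042-14820068, minus strand: gatGAGattgattttGAGttcttgggt
XTH27, chr2:385891-385917, plus strand: gatGAGatagattttGAGtttcttggt
XTH30, chr1:11576260-11576286, plus strand: gacGAGttagacataGAGtttctaggg
XTH31, chr3:16447882-16447908, minus strand: gatGAGgtcgatatcGAGtttctaggg
XTH33, chr1:3480306-3480332, minus strand: gacGAGatagacataGAAttgttgggt
Against XTH4, the stretch of XTH15 differed at 3 of 27 bases, that of XTH27 at 4, that of XTH7 at 5, those of XTH17, XTH24 and XTH30 at 6, that of XTH33 at 7, that of XTH9 at 8 and that of XTH31 at 9.

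The 250 bases before the annotated start are shown for 4 members: XTH17 and XTH18, whose levels were lower in etiolated DAYi seedlings labelled DEX, XTH8, which was lower in both dark comparisons, and XTH23, which was higher in both light comparisons. They are printed 5′ to 3′ on the coding strand. The capitals mark CATGTG, the reverse complement of the HUD-type E-box CACATG, in XTH17 and XTH18, and CGTGTG, a form of the BR response element, in XTH8 and XTH23.
XTH17, chr1:24256804-24257053, plus strand: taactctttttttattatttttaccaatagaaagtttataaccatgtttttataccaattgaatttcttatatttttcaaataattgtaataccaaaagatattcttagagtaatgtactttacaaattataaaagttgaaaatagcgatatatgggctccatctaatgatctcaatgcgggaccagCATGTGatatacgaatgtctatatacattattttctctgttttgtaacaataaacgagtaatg
XTH18, chr4:14827212-14827461, minus strand: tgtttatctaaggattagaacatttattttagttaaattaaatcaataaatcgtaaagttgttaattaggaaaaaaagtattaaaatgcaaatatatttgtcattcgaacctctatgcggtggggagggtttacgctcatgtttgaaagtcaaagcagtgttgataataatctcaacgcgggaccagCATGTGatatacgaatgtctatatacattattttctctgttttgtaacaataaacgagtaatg
XTH8, chr1:3880392-3880641, minus strand: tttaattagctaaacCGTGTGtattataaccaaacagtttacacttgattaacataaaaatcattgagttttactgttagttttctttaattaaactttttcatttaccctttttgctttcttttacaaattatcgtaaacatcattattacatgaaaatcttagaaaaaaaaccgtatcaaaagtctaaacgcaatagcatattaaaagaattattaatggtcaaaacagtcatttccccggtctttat
XTH23, chr4:13128144-13128393, plus strand: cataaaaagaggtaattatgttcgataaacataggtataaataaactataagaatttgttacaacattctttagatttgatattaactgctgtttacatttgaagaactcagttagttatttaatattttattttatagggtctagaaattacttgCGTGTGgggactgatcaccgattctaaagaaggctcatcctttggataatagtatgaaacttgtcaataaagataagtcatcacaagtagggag
XTH17 and XTH18 lie on different chromosomes, and the last 73 bases before their starts were identical, the HUD-type E-box included. Of 528 pairs of members, no other shared a run of 20 bases or more in this window, and the next longest run was 14 bases. Motifs were counted on both strands in the same window of 27437 genes of TAIR10.1. The BR response element (CGTGTG or CGTGCG) was found in 4 of 33 members (XTH2, XTH8, XTH23 and XTH25) and in 6.71% of all promoters. The HUD-type E-box was found in XTH17, XTH18, XTH25, XTH26 and XTH33, or 15.2% of members, and in 11.1% of all promoters. The G-box CACGTG was found in no member and in 6.49% of all promoters. The general E-box CANNTG, which takes in both the G-box and the HUD-type E-box, was found in 63.6% of members and in 55.3% of all promoters, and the auxin response element TGTCTC in XTH3 and XTH6 against 10.9% of all promoters. A match is a description of these letters only.

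The labels were checked first with the targeted genes. Expression is given as FPKM, fragment numbers scaled to transcript length and to the mapped fragments of the library, so that levels may be compared between genes. DAY was listed at 56.9 FPKM in light-grown DAYi with EtOH and at 6.88 with DEX. In the dark DAY was listed at 13.4 FPKM with EtOH and at 34.8 in the library labelled DEX, which goes against that label. DAY was also higher in the dark library titled bri1-116, at 32.8 FPKM against 13.8 in that titled Col-0. BRI1 in bri1-116 was listed at 42.5 FPKM against 70.6 in Col-0 in the dark, and at 33.3 against 58.1 in the light. It was also lower in DAYi, at 43 FPKM labelled DEX against 68 with EtOH in the dark, and at 30.2 against 54.1 in the light. A lower BRI1 level therefore does not single out the bri1-116 libraries. The dark Col-0 and bri1-116 libraries were named by their titles, since the genotype field of the labels gives them the other way round, and an exchange would invert every dark bri1-116 ratio below. Dark DAYi with EtOH was more than 2-fold apart from the library titled Col-0 at 4.41% of all entries and from the library titled bri1-116 at 22.0%, and in the light, where title and genotype field give the same names, these shares were 4.14% and 12.9%. The DAYi titles carry the number 3 with EtOH and 25 with DEX, and that of light bri1-116 the prefix new, with no explanation, so that treatment and any difference behind these marks cannot be told apart. Each group held 1 library, and no difference below has a replicate check or a test. A member counts as higher or lower where neither library lists it at 0 and the FPKM ratio is past 2-fold. Depth was estimated from the steps between low FPKM values: 1 FPKM on 1 kb stood for about 44.9 to 116 fragments, and 95% intervals given below for low members (exact Clopper-Pearson) cover counting error only. As a guide to library-to-library spread, DAYi with EtOH and Col-0 were set side by side, although they come from tables that may have been scaled separately. Among the 20 members of at least 5 FPKM in the dark and the 24 in the light, 0 were more than 2-fold apart, with ratios between 0.756 and 1.73 in the dark and between 0.576 and 1.49 in the light. Over all members 5 were more than 2-fold apart in the dark (XTH2, XTH6, XTH13, XTH25 and XTH29, all under 5 FPKM) against 4.41% of all entries, and 1 in the light (XTH29) against 4.14%.

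In etiolated seedlings, XTH transcripts were dominated by group II. XTH15, also named XTR7 and known as a shade-induced gene, was listed at 1605 FPKM in DAYi with EtOH, 1469 in DAYi labelled DEX, 1487 in Col-0 and 1883 in bri1-116. These levels were within 1.27-fold in each pair. The family summed to 4485 FPKM in DAYi with EtOH, 2655 in DAYi labelled DEX, 4080 in Col-0 and 2905 in bri1-116. The sum was therefore lower both in DAYi labelled DEX (ratio 0.592) and in bri1-116 (ratio 0.712). XTH15 made up 35.8% of the sum in DAYi with EtOH and 55.3% in DAYi labelled DEX, and 36.4% in Col-0 and 64.8% in bri1-116. Without XTH15, the other members summed to 2880 FPKM in DAYi with EtOH and 1186 in DAYi labelled DEX, and to 2593 in Col-0 and 1022 in bri1-116. In whole seedlings, fewer cells of a type and less RNA per cell cannot be told apart.

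In the light the sum was lower and spread over other members. It was 1938 FPKM in DAYi with EtOH, 1502 with DEX, 1985 in Col-0 and 1637 in bri1-116. Group I made up 55.8% of the sum in DAYi with EtOH, 38.7% with DEX, 56.6% in Col-0 and 35.3% in bri1-116. The leading members were XTH7, XTH31 and XTH4 in both controls, XTH27, XTH7 and XTH4 in DAYi with DEX, and XTH4, XTH27 and XTH24 in bri1-116. AT2G01021 alone took 1.51 to 28.6% of all FPKM of a library. Without this entry, the family's share of the summed FPKM was 0.553% and 0.322% in dark DAYi with EtOH and labelled DEX, 0.536% and 0.349% in dark Col-0 and bri1-116, 0.170% and 0.164% in light DAYi with EtOH and DEX, and 0.163% and 0.177% in light Col-0 and bri1-116. The lower sum in light-grown bri1-116 was thus turned on this scale, while both dark differences and that of light DAYi with DEX kept their direction.

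**Figure D1:**
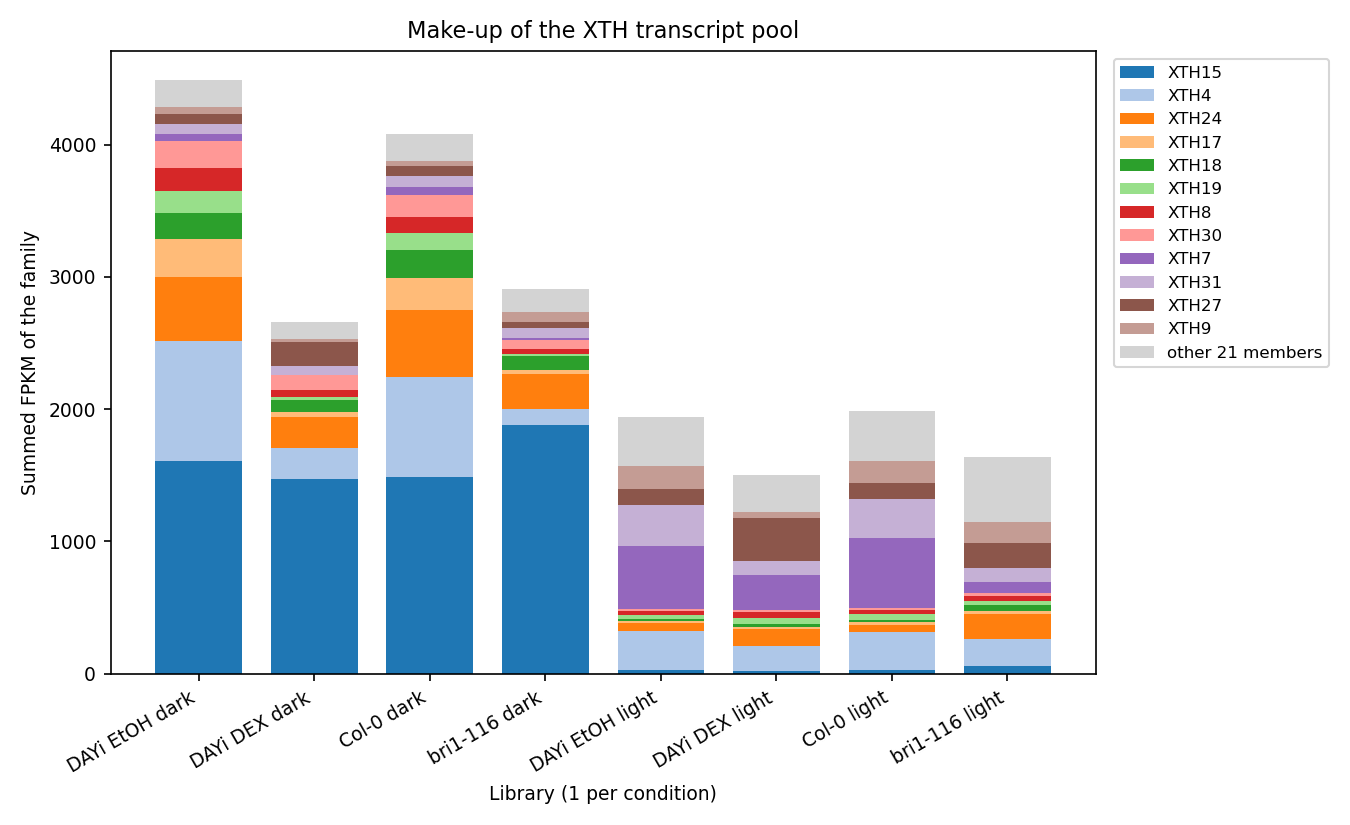
Summed FPKM of the XTH family (y axis, linear, from 0) in each of the 8 libraries (x axis, 1 per condition), stacked by member. The XTH15 segment fills 1469 to 1883 FPKM of each dark bar and 22.5 to 60.7 FPKM of each light bar, and the dark library named DAYi DEX is the library labelled DEX.

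**Figure D2:**
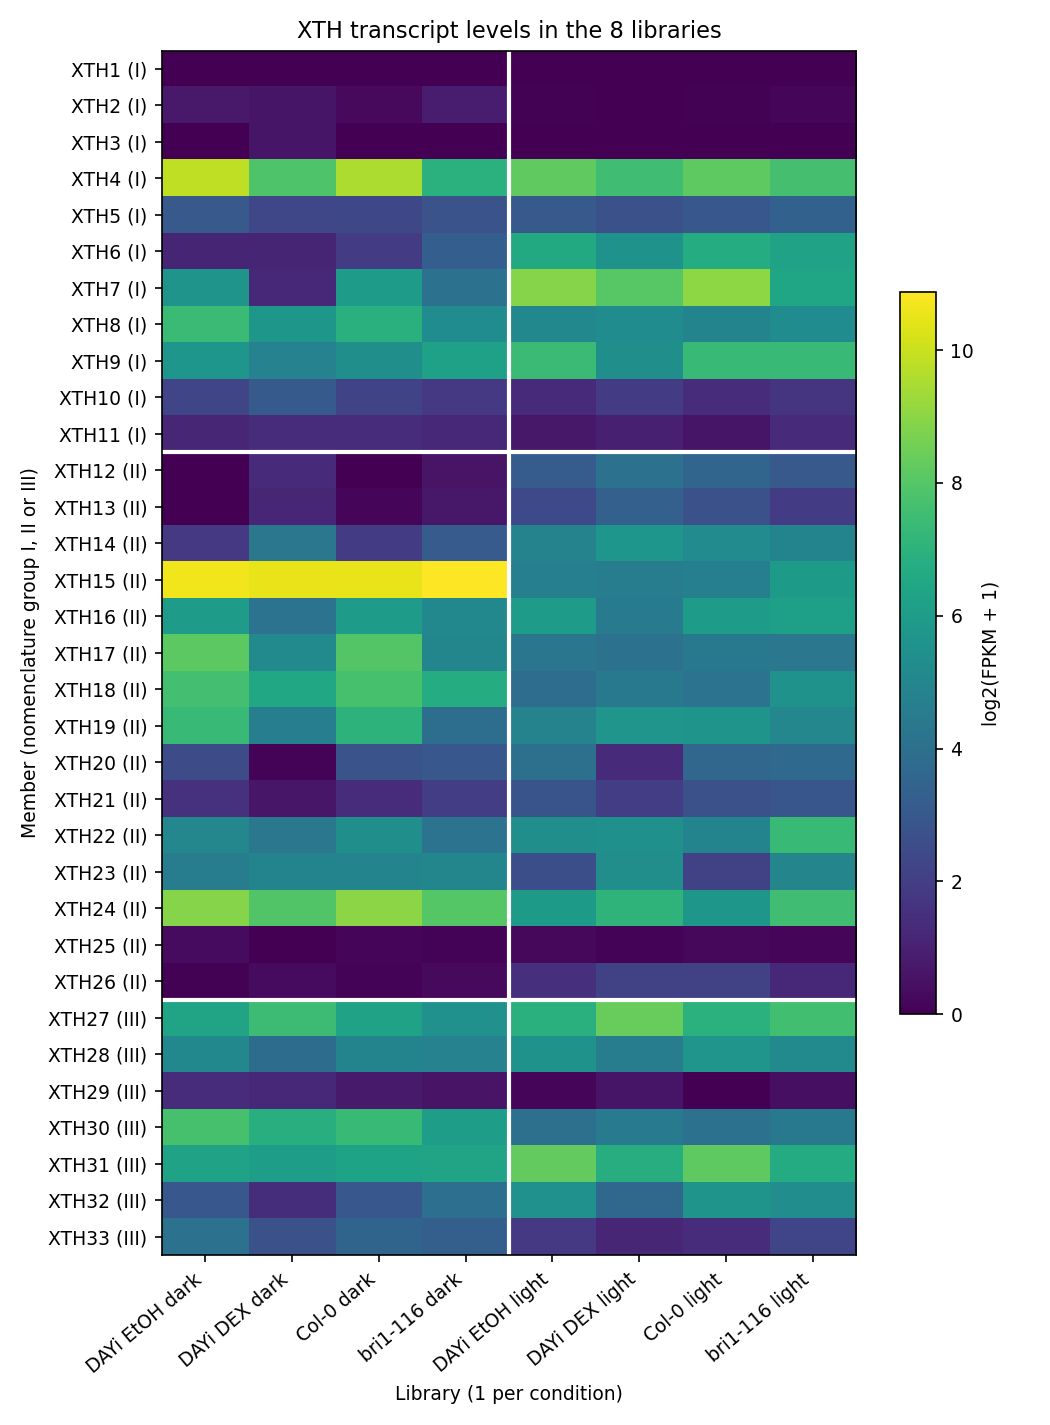
Transcript level of each of the 33 members (y axis, with nomenclature group) in the 8 libraries (x axis, dark left and light right of the white line), as log2(FPKM + 1) in colour, 1 library per condition. XTH15 is the brightest row in the dark at 1469 FPKM or more, and XTH1 is listed at 0 in all 8 libraries.

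The light and dark controls differed at most members. 9 members were more than 2-fold higher in the light in both DAYi with EtOH and Col-0: XTH6, XTH7, XTH9, XTH13, XTH14, XTH21, XTH26, XTH31 and XTH32. Another 13 were lower in both: XTH2, XTH4, XTH8, XTH10, XTH15, XTH17, XTH18, XTH19, XTH23, XTH24, XTH29, XTH30 and XTH33. Among all entries 18.3% were higher and 15.6% lower in the light in both controls. In DAYi with EtOH 11 members were higher and 13 lower of 31 above 0 in both libraries, against 21.2% and 19.8% of all entries. In Col-0 the counts were 9 and 14 of 30, against 22.9% and 19.1%. XTH15 was 63.7-fold lower in the light than in the dark in DAYi with EtOH and 58.7-fold lower in Col-0. XTH6 was 80.7-fold higher in the light in DAYi with EtOH and 37.8-fold higher in Col-0. Light and dark libraries come from different tables that may have been scaled separately, and age differs with light.

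In the dark, 14 of the 31 members above 0 in both libraries were more than 2-fold lower in DAYi labelled DEX than in DAYi with EtOH, and 5 were higher. Among all entries 12.2% were lower and 9.36% higher. The median log2 ratio (with 1 FPKM added to both values) was −0.71 over the 33 members and −0.00 over the 19311 entries of at least 1 FPKM in either library. Over the members with that same minimum it was −0.89. Group I held 3 of the lower members and none of the higher ones, group II held 8 and 4, and group III held 3 and 1. In bri1-116 against Col-0, 7 of 30 members were lower and 6 higher, against 9.01% and 11.2% of all entries. The median log2 ratio was −0.05 over the 33 members, −0.22 over those of at least 1 FPKM in either library and −0.03 over 19224 entries. After FPKM was rescaled to a common sum without AT2G01021, the dark DAYi counts stayed at 5 higher and 14 lower, against 9.17% and 12.5% of all entries on that scale. The dark bri1-116 counts became 6 higher and 10 lower, against 8.85% and 11.5%, with XTH16, XTH18 and XTH24 added to the lower members.

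5 members were lower in both dark comparisons: XTH4, XTH7, XTH8, XTH17 and XTH19. These make up 5 of the 14 lower members in DAYi and 5 of the 7 in bri1-116. Among all entries 858 were lower in both (3.94%), out of 2712 lower in DAYi and 2001 lower in bri1-116. XTH13, XTH14 and XTH26 were higher in both, 3 of the 5 in DAYi and 3 of the 6 in bri1-116. Among all entries 539 were higher in both (2.47%), out of 2084 higher in DAYi and 2476 higher in bri1-116. XTH32 was lower in DAYi labelled DEX and higher in bri1-116, and 2.66% of all entries went in opposite directions. The DAYi and bri1-116 comparisons share no library.

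In the light, 11 of 31 members were lower in DAYi with DEX and 5 were higher, against 16.3% and 12.1% of all entries. The median log2 ratio was 0.00 over all members, −0.16 over those of at least 1 FPKM in either library and 0.04 over 19508 entries with that minimum. Group I held 3 of the lower members, group II 4 and group III 4. The common sum without AT2G01021 multiplies every light DAYi ratio by 1.25, so that the split turned for the members and for all entries alike: 10 members were higher and 6 lower, and 19.7% of all entries were higher and 11.7% lower. XTH10, XTH12, XTH14, XTH19 and XTH26 passed the threshold upward on that scale, and XTH6, XTH21, XTH25, XTH28 and XTH33 no longer passed it downward. In bri1-116 against Col-0 in the light, 9 of 31 members were higher and 4 lower, against 6.52% and 7.82% of all entries. Medians were 0.09 over all members, 0.14 over those of at least 1 FPKM in either library and −0.04 over 19293 entries. On the common-sum scale, a factor of 1.32 here, 10 were higher and 2 lower, against 13.0% and 3.88% of all entries, with XTH27 added and XTH13 and XTH26 lost. XTH23, XTH24 and XTH29 were higher in both light comparisons, 3 of 5 in DAYi and 3 of 9 in bri1-116. Among all entries 602 were higher in both (2.78%), out of 2663 higher in DAYi and 1446 higher in bri1-116. XTH31 was lower in both, 1 of 11 in DAYi and 1 of 4 in bri1-116. Among all entries 3.78% were lower in both, out of 16.3% lower in DAYi and 7.82% lower in bri1-116. Both member fractions were thus smaller than those of all entries. XTH2, XTH13 and XTH33 were past 2-fold in opposite directions, against 1.36% of all entries. In each case a call was weak: XTH2 rested on about 1 and 2 fragments in DAYi and 7 and 1 in bri1-116, and XTH33 in DAYi and XTH13 in bri1-116 were within 2-fold on the common-sum scale. Green tissue genes differed as well: the 6 genes checked (photosystem and RBCS genes with GLK1 and GLK2) summed to 7369 FPKM in light DAYi with DEX against 35028 with EtOH, all 6 more than 2-fold lower, and to 18625 in light bri1-116 against 37873 in Col-0, 3 of 6 lower. In the dark they summed to 769 FPKM in DAYi labelled DEX against 2800 (3 of 6 lower) and to 7217 in bri1-116 against 2455 (4 of 6 higher). Among all entries 16.3% were lower in light DAYi and 7.82% in light bri1-116. In the dark 12.2% were lower in DAYi and 11.2% higher in bri1-116. None of the 6 genes was at 0. Their part in the XTH differences was not tested.

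**Figure D3:**
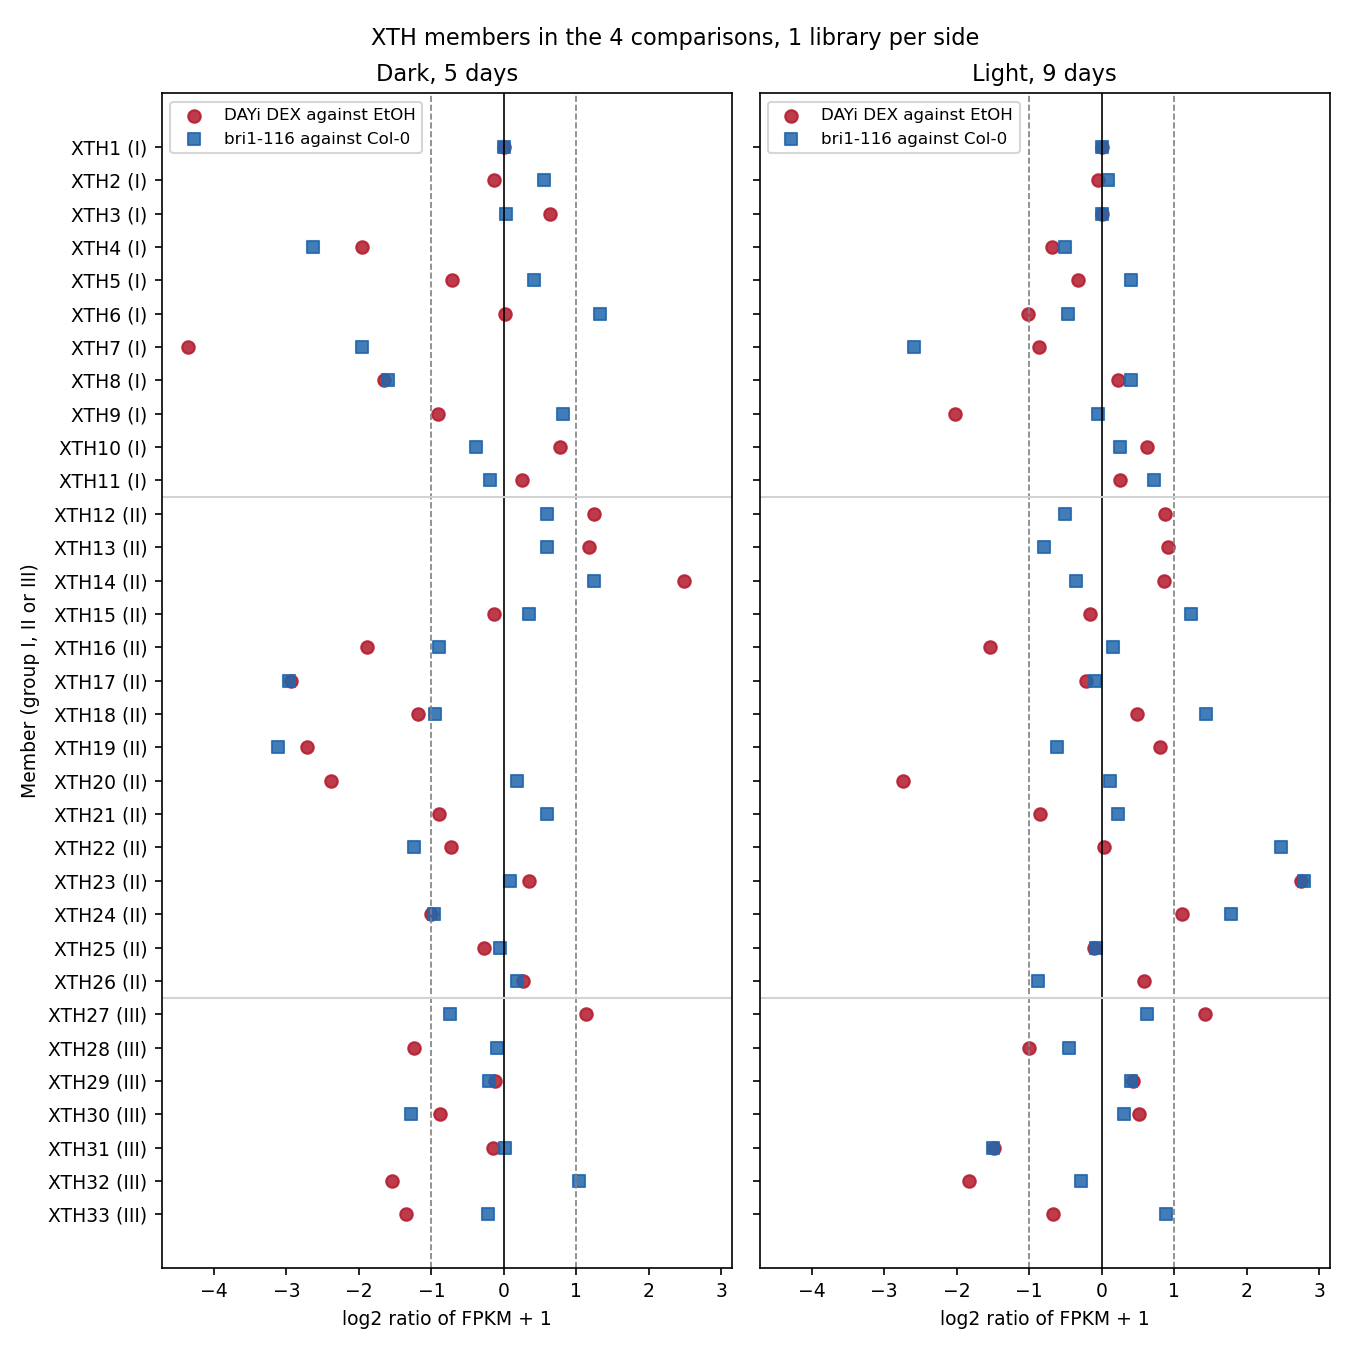
Log2 ratio of FPKM + 1 (x axis) for each member (y axis), in the dark (left) and in the light (right), for DAYi with DEX against EtOH (red circles) and bri1-116 against Col-0 (blue squares), 1 library per side. Dashed lines mark a ratio of 2-fold with 1 FPKM added, so that low members such as XTH25 sit near 0 whatever their fold; XTH7 reaches −4.36 in dark DAYi labelled DEX and XTH23 lies near 2.75 and 2.79 in the light.

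Group I is described first. XTH4, an abundant member of elongating tissues also named EXGT-A1 (AT2G06850, chr2:2763526-2765720 in the tables), was listed in the dark at 912 FPKM in DAYi with EtOH, 234 in DAYi labelled DEX, 753 in Col-0 and 121 in bri1-116. Its light levels were 295, 184, 289 and 204 FPKM in DAYi with EtOH, DAYi with DEX, Col-0 and bri1-116. XTH4 was thus 3.89-fold lower in DAYi labelled DEX and 6.24-fold lower in bri1-116 in the dark, and within 2-fold in the light. After XTH15 it was the most abundant member of both dark controls, at 20.3% and 18.4% of the family's sum.

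XTH7 (AT4G37800, chr4:17775474-17777397) was listed at 48.6 FPKM in dark DAYi with EtOH, 1.41 in DAYi labelled DEX, 64.2 in Col-0 and 15.9 in bri1-116. Its light levels were 476 FPKM in DAYi with EtOH, 261 with DEX, 527 in Col-0 and 86.8 in bri1-116. It was the only member that was lower in bri1-116 in both light conditions, 4.05-fold in the dark and 6.07-fold in the light. In DAYi labelled DEX it was 34.4-fold lower in the dark, and in light DAYi with DEX 1.82-fold lower. XTH6, its nearest relative with 73.2% identical coding bases, behaved otherwise. XTH6 was listed at 1.18, 1.2, 2.79 and 8.52 FPKM in the dark (DAYi with EtOH, DAYi labelled DEX, Col-0, bri1-116) and at 95.3, 46.9, 105 and 76.3 in the light. It was 3.05-fold higher in dark bri1-116 and 2.03-fold lower in light DAYi with DEX, the latter within 2-fold on the common-sum scale (ratio 0.613). The dark bri1-116 level stood apart from the other 3 dark libraries, although the 2 dark controls themselves were more than 2-fold apart.

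XTH8 was listed in the dark at 171 FPKM in DAYi with EtOH, 53.9 in DAYi labelled DEX, 119 in Col-0 and 38.6 in bri1-116. Light-grown seedlings had between 28.9 and 38.7 FPKM in all 4 libraries. The dark levels of both controls lay above those of the other libraries, which were 3.17-fold and 3.07-fold lower, while the light levels were close together. XTH9, known from shoot apices, was 4.14-fold lower in light DAYi with DEX (41.4 against 172 FPKM), with 165 FPKM in Col-0 and 159 in bri1-116. In the dark XTH9 was listed at 52.0 FPKM in DAYi with EtOH, 27.1 labelled DEX, 42.1 in Col-0 and 74.7 in bri1-116, all pairs within 2-fold. The other members of group I were low. XTH5 stayed between 4.03 and 9.41 FPKM and XTH10 between 1.47 and 7.36, with no pair more than 2-fold apart in the 4 comparisons. On the common-sum scale the light DAYi ratio of XTH10 was 2.37. XTH11 was 2.89-fold higher in light bri1-116 (1.54 against 0.534 FPKM). XTH2 did not exceed 0.803 FPKM. XTH3, which in vitro also joins cellulose chains, was listed at 0 in 5 libraries and at 0.546 FPKM in dark DAYi labelled DEX.

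Group II holds the root-expressed set XTH17 to XTH20, whose coding sequences are among the most alike in the family. XTH17 (AT1G65310, chr1:24257216-24258473), also shade-induced, was listed in the dark at 284 FPKM in DAYi with EtOH, 36.2 in DAYi labelled DEX, 246 in Col-0 and 30.5 in bri1-116. Its light levels lay between 15.8 and 20 FPKM in all 4 libraries. XTH17 was 7.85-fold and 8.07-fold lower in the dark comparisons, and both dark controls stood apart from the 6 other libraries. XTH18, with 92.2% of coding bases identical to XTH17, was listed in the dark at 199 FPKM in DAYi with EtOH, 87.3 labelled DEX, 208 in Col-0 and 107 in bri1-116. In the light XTH18 was listed at 13.9, 20, 16.8 and 47.4 FPKM in the same order. It was 2.28-fold lower in dark DAYi labelled DEX and 2.82-fold higher in light bri1-116, where XTH17 was at a ratio of 0.940.

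XTH19 was listed in the dark at 165 FPKM in DAYi with EtOH, 24.3 labelled DEX, 131 in Col-0 and 14.3 in bri1-116. Its light levels were 28.2, 50.0, 48.9 and 31.6 FPKM in the same order. The dark levels were 6.78-fold and 9.15-fold lower, and the light levels were within 2-fold, as were those of both light controls at a ratio of 0.576. On the common-sum scale the light DAYi ratio of XTH19 was 2.21. XTH20 was the member with the largest fold difference downward in DAYi. It was listed at 4.59 FPKM in dark DAYi with EtOH, 0.0689 in DAYi labelled DEX, 5.93 in Col-0 and 6.83 in bri1-116. In the light XTH20 was listed at 15.1 FPKM in DAYi with EtOH, 1.42 with DEX, 11.2 in Col-0 and 12.3 in bri1-116. XTH20 was thus lower in DAYi with or labelled DEX in both light conditions, 66.6-fold in the dark (95% interval 33.9 to 175, exact binomial on about 7 and 645 fragments, counting error only) and 10.7-fold in the light, and within 1.15-fold in bri1-116. The longest stretches shared by the transcripts of these 4 members were 68 bases for XTH18 and XTH19, 51 for XTH17 and XTH19, and 47 for XTH17 and XTH18. Reads within such stretches may be split between them, so single values of the set are uncertain to that extent. Among all entries 12.2% were lower in dark DAYi labelled DEX, 9.01% in dark bri1-116, 16.3% in light DAYi with DEX and 7.82% in light bri1-116. Of 7 root genes found of 9 listed, 2 were lower in dark DAYi labelled DEX (HKT1 and CASP1), 4 in dark bri1-116 (NRT2.1, CASP1, ESB1 and MYB36), 2 in light DAYi with DEX (NRT2.1 and SKOR) and 1 in light bri1-116 (NRT2.1), and 0 were higher. Their summed FPKM was 214 against 414 in DAYi and 112 against 322 in bri1-116 in the dark, and 118 against 80.6 and 80.6 against 83.9 in the light, with none at 0. The light DAYi sum was higher with DEX mainly through CASP1 (47.6 against 32.3 FPKM) and ESB1 (37.4 against 22.2), both within 2-fold. Their part in the levels of the set was not tested.

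XTH12, XTH13, XTH14 and XTH26 formed the higher members of group II in dark DAYi labelled DEX. XTH14 and XTH26 are known from root hairs. XTH14 (AT4G25820, chr4:13130297-13131788) was listed in the dark at 2.52 FPKM in DAYi with EtOH, 18.7 labelled DEX, 2.72 in Col-0 and 7.80 in bri1-116, and was 7.42-fold and 2.87-fold higher. Its light levels were 28.3, 52.0, 36.9 and 28.7 FPKM in the same order, within 2-fold, although the light DAYi ratio was 2.29 on the common-sum scale. Both dark controls were thus lower than every other library. XTH13 was listed in the dark at 0.0134, 1.28, 0.0935 and 0.641 FPKM (DAYi with EtOH, DAYi labelled DEX, Col-0, bri1-116). Its light levels were 4.29, 9.01, 5.48 and 2.73 FPKM in the same order. XTH13 was 95.6-fold higher in dark DAYi labelled DEX on about 105 and 1 fragments (counting interval 24.2 to 5490), 6.86-fold higher in dark bri1-116 (3.04 to 23.6), 2.1-fold higher in light DAYi with DEX and lower, just past the threshold at a ratio of 0.499, in light bri1-116. XTH12 was listed at 0.0211 FPKM in dark DAYi with EtOH and 1.44 labelled DEX, a 68.1-fold difference (21.7 to 668). It was listed at 0 in dark Col-0 and 0.505 in bri1-116, and between 7.15 and 15.5 FPKM in the light. XTH12 and XTH13 have 89.7% identical coding bases and a shared run of 47 bases, so their reads may be split. XTH26 did not exceed 3.32 FPKM. It was 5.62-fold higher in dark DAYi labelled DEX (0.247 against 0.0440 FPKM; 2.13 to 19.5) and 2.84-fold higher in dark bri1-116 (0.221 against 0.0778; 1.03 to 9.07). In light bri1-116 it was 2.46-fold lower.

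The 10 root hair genes checked (RHD6, RSL4, EXPA7, EXPA18, LRX1, PRP3, COW1, RBOHC, COBL9 and ADF8) were set beside these members. 9 of 10 were more than 2-fold higher in dark DAYi labelled DEX, with a summed level of 69.3 FPKM against 10.1, and 7 of 10 in dark bri1-116, with 22.4 against 9.29. Among all entries 9.36% were higher in dark DAYi labelled DEX and 11.2% in dark bri1-116. In the light 0 of the 10 genes passed in either comparison, against 12.1% and 6.52% of all entries. The sums were 165 against 94.2 in DAYi and 82.7 against 100 FPKM in bri1-116. All 10 were still higher in light DAYi with DEX, at ratios between 1.42 (COW1) and 1.97 (ADF8). The common-sum scale multiplies these by 1.25, which takes the larger ones past 2-fold, against 19.7% of all entries. In light bri1-116 ratios lay between 0.64 (PRP3) and 1.84 (RHD6), and that factor was 1.32. None of the 10 genes was at 0 in any library. Whether more root hair cells or more transcript per cell lie behind these levels was not tested.

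XTH15 and XTH16 are close relatives (81.7% identical coding bases) with different patterns. XTH16 was listed in the dark at 64.2 FPKM in DAYi with EtOH, 16.5 labelled DEX, 62.4 in Col-0 and 33.1 in bri1-116, and in the light at 62.4, 20.8, 61.7 and 69.0. It was 3.88-fold lower in the dark and 3.00-fold lower in the light in DAYi, and within 2-fold in bri1-116. On the common-sum scale its dark bri1-116 ratio was 0.485, just past the threshold. All 4 control libraries of XTH16 lay between 61.7 and 64.2 FPKM. XTH15, by contrast, was within 2-fold in DAYi in both conditions and 2.40-fold higher in light bri1-116 (60.7 against 25.3 FPKM). XTH21, which acts in root growth, was low: its dark levels were 1.93, 0.570, 1.59 and 2.91 FPKM in DAYi with EtOH, DAYi labelled DEX, Col-0 and bri1-116, and its light levels were 6.10, 2.94, 5.48 and 6.60 FPKM in the same order. It was 3.38-fold lower in the dark and 2.07-fold lower in the light in DAYi, the latter within 2-fold on the common-sum scale (ratio 0.601).

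XTH22, XTH23 and XTH24 include the classical touch- and hormone-induced members. XTH22 (TCH4, AT5G57560, chr5:23307130-23308282), induced by touch, BR and auxin, was listed in the dark at 31.7 FPKM in DAYi with EtOH, 18.8 labelled DEX, 41.3 in Col-0 and 16.9 in bri1-116. Its levels in the light were 42.1, 43.4, 28.6 and 163 FPKM in the same order. The light bri1-116 library stood above the other 7. XTH22 was 2.45-fold lower in bri1-116 in the dark and 5.68-fold higher in the light, and within 2-fold in DAYi. XTH23 (XTR6, AT4G25810, chr4:13128643-13129884) was listed between 22.4 and 31.1 FPKM in all 4 dark libraries. In the light XTH23 was listed at 5.12 FPKM in DAYi with EtOH, 40.1 with DEX, 3.44 in Col-0 and 29.7 in bri1-116. It was thus 7.83-fold and 8.63-fold higher in the light comparisons, and the light controls were lower than the 6 other libraries.

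XTH24 (AT4G30270, chr4:14819192-14820592), also named MERI5, was listed in the dark at 483 FPKM in DAYi with EtOH, 239 labelled DEX, 508 in Col-0 and 258 in bri1-116. Its levels in the light were 60.5, 132, 53.9 and 188 FPKM in the same order. In the dark XTH24 was lower in DAYi labelled DEX at a ratio of 0.495, just past the threshold, and in bri1-116 at 0.509, just inside it. In the light it was 2.18-fold and 3.48-fold higher. Both controls were the highest dark libraries and the lowest light libraries. XTH25 did not exceed 0.235 FPKM. It was 10-fold lower in dark DAYi labelled DEX (0.0234 against 0.235 FPKM) on about 2 and 27 fragments (2.59 to 89.3). Its 2.13-fold lower level in light DAYi with DEX rested on about 5 and 9 fragments.

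Group III holds 7 members, among them those known for hydrolase activity. XTH27 (EXGT-A3, AT2G01850, chr2:385199-387344), which acts in the tracheary elements of veins, was higher in DAYi in both conditions. It was listed in the dark at 80.5 FPKM in DAYi with EtOH, 177 labelled DEX, 75.4 in Col-0 and 44.8 in bri1-116. Light levels of XTH27 were 119, 324, 123 and 190 FPKM in the same order. XTH27 was 2.2-fold higher in dark DAYi labelled DEX and 2.71-fold higher in the light, where it was the most abundant member at 21.6% of the family's sum. Of 6 xylem genes checked (VND7, XCP1, XCP2, CESA4, CESA7 and CESA8), 0 were higher in either DAYi comparison, against 9.36% and 12.1% of all entries. VND7 was lower in light DAYi with DEX, against 16.3%. Summed levels were 166 against 219 FPKM in dark DAYi and 107 against 108 in light DAYi. In dark bri1-116 CESA4, CESA7 and CESA8 were lower, against 9.01% of all entries, with a sum of 99.9 against 198 FPKM. In light bri1-116 the sum was 92.9 against 104, with 0 past 2-fold. The part of these genes in the XTH27 levels was not tested. XTH28, its closest relative with 77.7% identical coding bases and a role in stamen filaments, was lower in DAYi in both conditions. It was listed in the dark at 33.2, 13.5, 29.1 and 27.3 FPKM (DAYi with EtOH, DAYi labelled DEX, Col-0, bri1-116) and in the light at 46.0, 22.5, 50.0 and 36.3. XTH28 was 2.47-fold and 2.04-fold lower in DAYi, the light difference being within 2-fold on the common-sum scale (ratio 0.610), and within 2-fold in bri1-116.

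XTH31 (XTR8, AT3G44990, chr3:16446975-16448764) and XTH32 have been described with hydrolase activity. XTH31 was listed in the dark between 68.0 and 79.8 FPKM in all 4 libraries. In the light it was listed at 310 FPKM in DAYi with EtOH, 110 with DEX, 291 in Col-0 and 102 in bri1-116. It was 2.83-fold and 2.84-fold lower in the light comparisons, with both controls above every other library. XTH32 was listed in the dark at 6.73 FPKM in DAYi with EtOH, 1.65 labelled DEX, 6.69 in Col-0 and 14.7 in bri1-116, and in the light at 44.4, 11.7, 48.0 and 39.4. It was 4.08-fold lower in the dark and 3.78-fold lower in the light in DAYi, and 2.2-fold higher in dark bri1-116.

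XTH33, a member predicted to be anchored in the plasma membrane, was listed in the dark at 15.5 FPKM in DAYi with EtOH, 5.5 labelled DEX, 10.5 in Col-0 and 8.89 in bri1-116, and in the light at 2.54, 1.22, 1.61 and 3.83. It was 2.83-fold lower in the dark and 2.08-fold in the light in DAYi, and 2.37-fold higher in light bri1-116. The light difference in DAYi was lost on the common-sum scale. XTH30 was listed in the dark at 210, 114, 165 and 67.3 FPKM in the same order and in the light between 15 and 21.8. It was 2.45-fold lower in dark bri1-116 and within 2-fold in the other comparisons. XTH29 did not exceed 1.58 FPKM, and its 13.7-fold higher level in light bri1-116 rested on about 39 and 1 fragments (3.06 to 732).

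11 members lie close together in 7 joins no more than 10000 bases apart, 6 of them with no other annotated gene between, and members of a join did not share their patterns throughout. On chromosome 4, XTH24, XTH18 and XTH19 follow each other with gaps of 5161 and 1500 bases, all on the minus strand. All 3 were lower in dark DAYi labelled DEX, and in light bri1-116 XTH24 and XTH18 were 3.48-fold and 2.82-fold higher while XTH19 was at a ratio of 0.646. XTH23 and XTH14, also on chromosome 4, are 363 bases apart on the plus strand. In the dark XTH14 was 7.42-fold higher in DAYi labelled DEX and XTH23 1.28-fold higher, and in the light XTH23 was 7.83-fold higher and XTH14 1.84-fold. On chromosome 5, XTH12, XTH13, XTH25 and XTH22 lie in a row on the minus strand with gaps of 1097, 686 and 565 bases, and another annotated gene lies between XTH12 and XTH13. XTH12 and XTH13 were higher in dark DAYi labelled DEX, XTH25 did not exceed 0.235 FPKM in any library, and XTH22 was the only member of this row above 15.5 FPKM. The remaining join, XTH1 and XTH2, held XTH1, which was listed at 0 in all 8 libraries.

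**Figure D4:**
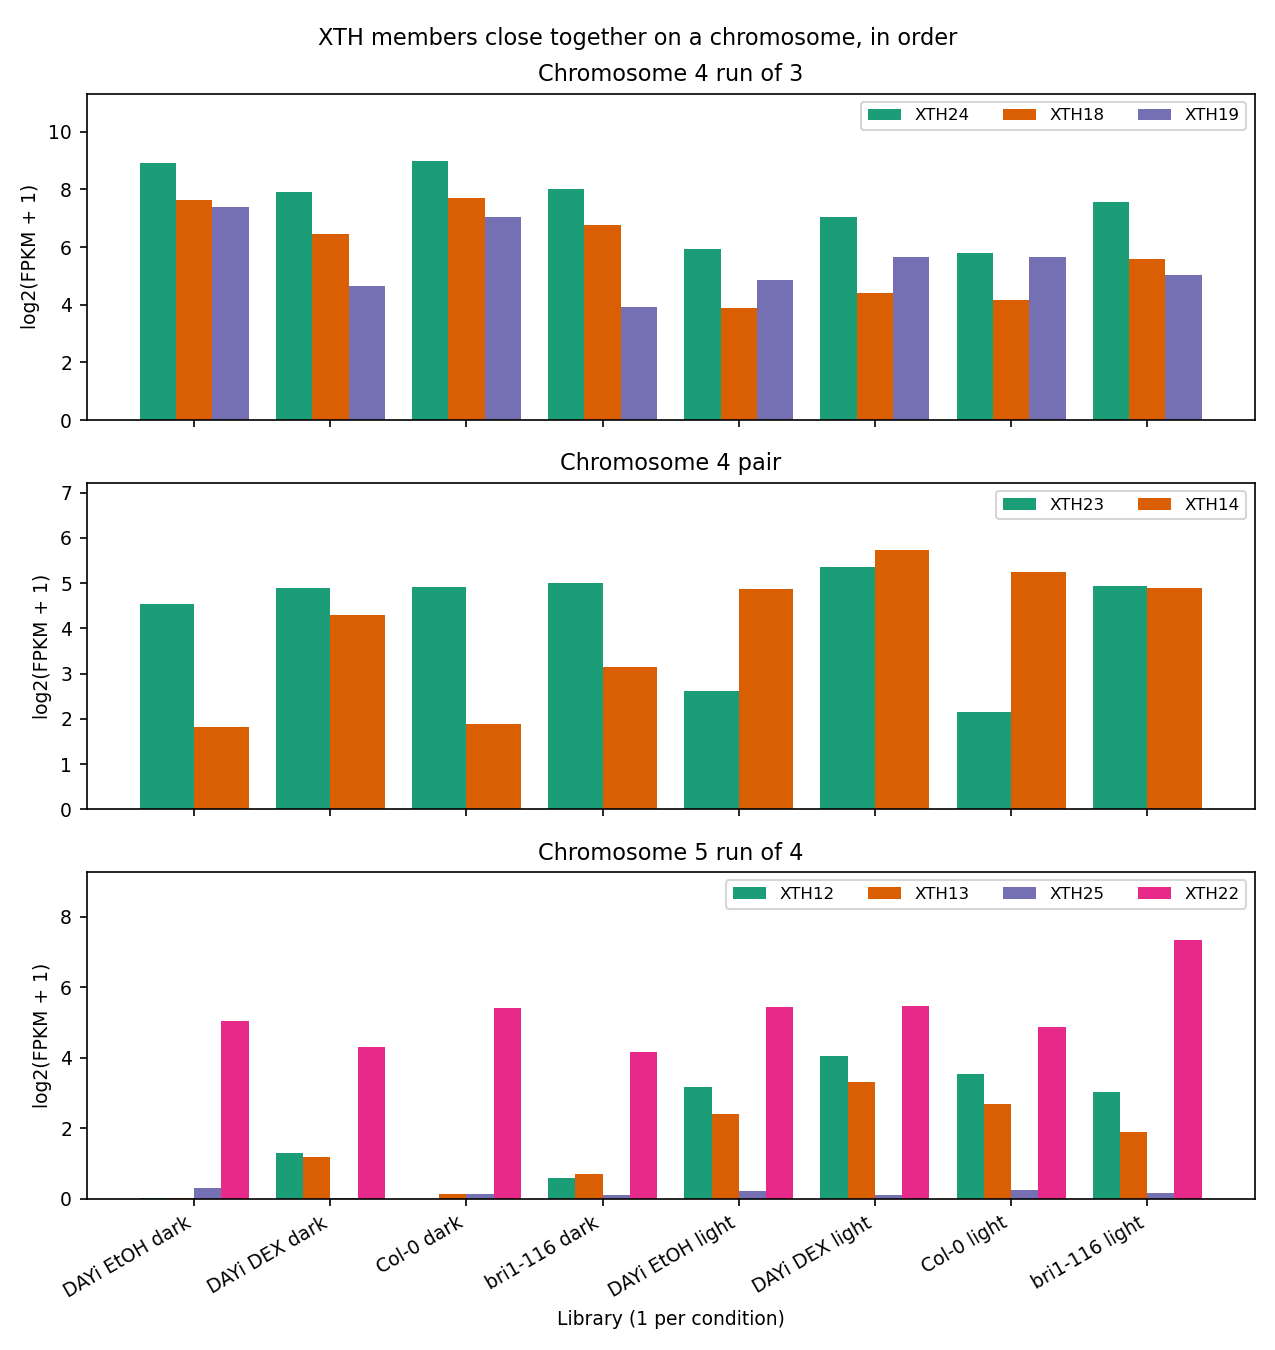
Level as log2(FPKM + 1) (y axis, from 0) of members close together on a chromosome, in each of the 8 libraries (x axis, 1 per condition), in 3 panels for the runs of 3 and 2 members on chromosome 4 and of 4 members on chromosome 5. In the middle panel the XTH23 bar (green) is above the XTH14 bar (orange) in all dark libraries and below it in light DAYi with EtOH, DAYi with DEX and Col-0.

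The other genes of the xyloglucan pathway were described from a list chosen with earlier results of these data known. Of 16 genes for xyloglucan synthesis and decoration, 3 were lower and 1 higher in dark DAYi labelled DEX, 1 and 1 in light DAYi with DEX, 2 and 0 in dark bri1-116, and 1 and 0 in light bri1-116. The shares of all entries lower and higher were 12.2% and 9.36%, 16.3% and 12.1%, 9.01% and 11.2%, and 7.82% and 6.52% in the same order, and of these counts only the 3 and 2 lower genes in the dark were larger shares of the 16 than that. CSLC4, a glucan synthase that makes the xyloglucan backbone, was listed in the dark at 93.1 FPKM in DAYi with EtOH, 22.1 labelled DEX, 79.9 in Col-0 and 19.1 in bri1-116. In the light CSLC4 was between 29.4 and 42.8 FPKM in all 4 libraries. The dark controls of CSLC4 thus stood above the 6 other libraries. AXY4, an O-acetyltransferase of xyloglucan, was listed in the dark at 19.3, 8.37, 15.8 and 7.34 FPKM in the same order. CSLC12 was lower in dark DAYi labelled DEX (0.564 against 2.18 FPKM), CSLC8 in light DAYi with DEX (3.63 against 7.38) and XLT2, a galactosyltransferase, in light bri1-116 (14.9 against 31.7). XUT1, which adds galacturonic acid to xyloglucan of root hairs, was higher in DAYi in both conditions (1.57 against 0.224 FPKM in the dark and 2.89 against 1.33 in the light). The xylosyltransferases XXT1 to XXT5 were within 2-fold in all 4 comparisons. Among 3 glycosidases that trim xyloglucan, the galactosidase BGAL10 was lower in dark DAYi labelled DEX (9.15 against 31.3 FPKM), in light DAYi with DEX (3.52 against 7.78) and in dark bri1-116 (11.1 against 24.9), while the xylosidase XYL1 and the fucosidase AXY8 were within 2-fold throughout.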

How the data were processed

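Stranded mRNA libraries of whole seedlings were sequenced on a NextSeq500. By the submitters' processing notes, the tools were CASAVA 1.8.2 for base calls, TopHat2 2.0.13 for alignment to build TAIR10, and Cuffdiff 2.2.0 for expression values. The authors deposited FPKM per gene and library in 4 full tables of 26987 entries, 1 per comparison. Their fold changes, statistics and shorter sheets of selected genes hold the authors' own comparisons and were not used. The sources used here give neither read length nor fragment counts.

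Members were found by locus tag. The members and gene lists were chosen with earlier results of these data known. A member was described in all 8 libraries where it reached 5 FPKM in at least 1 library and was more than 2-fold apart in at least 2 of 4 comparisons, which named 20 members, and others were given by range or singly. Ratios were taken on FPKM without a pseudocount, and log2 ratios with 1 FPKM added to both values, which understates the differences of low members. With 1 library per group no test was made. Alternatives were a pseudocount of 0.1 FPKM, a minimum of 1 FPKM, fold thresholds of 1.5 and 4, members at 0 counted, centring, a common sum without AT2G01021, and exchange of the dark Col-0 and bri1-116 libraries.

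Depth was estimated from low FPKM values of 2671 intronless genes of at least 900 bases, after 150 bases were taken off the length. Between 46.7 and 64.3% of the values came out whole within 0.15 fragments, against 30.0% for a step that was not fitted. The step was chosen to bring values nearest to whole, so the excess over 30.0% cannot show how good the fit is. Fragment numbers are therefore approximate. The fit was also run on simulated data in which every value was whole by design, so that this run cannot bear on the fit to the real values. The settings of the fit and the choice of promoters to print were made after the data were seen. Sequences and positions of the printed sequences are from RefSeq on TAIR10.1, whose nuclear chromosomes have the lengths of TAIR10. All 33 loci overlapped the reference, although gene starts and ends mostly differed from those of the tables. Upstream windows stop at the RefSeq gene start, and coding sequences were aligned in pairs. Python 3.11.15, pandas 2.3.3, numpy 2.4.6, Biopython 1.88, SciPy 1.17.1 and matplotlib 3.10.9 were used.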

Additional observations from a re-analysis of the deposited data

Results flagged for a closer look

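4 members differed in opposite directions between the dark and the light under the same contrast. The difference between the conditions was not tested for any of them, since each condition held 1 library per group. XTH24 had a log2 ratio of −1.01 in dark DAYi labelled DEX against EtOH, and its light value was 1.11. XTH22 had a log2 ratio of −1.24 for dark bri1-116 over Col-0, and its light value was 2.47. XTH13 stood at 0.59 in dark bri1-116 and at −0.80 in light bri1-116, both on low FPKM. XTH26, also low, stood at 0.18 for dark bri1-116 and at −0.88 for light bri1-116. For XTH13 and XTH26 the light difference was within 2-fold on the scale of a common sum without AT2G01021. Dark and light seedlings also differ in age. An exchange of the dark Col-0 and bri1-116 libraries would turn the dark values of XTH13, XTH22 and XTH26.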

How the results depend on the processing

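A threshold of 4-fold left 6 members lower in dark DAYi labelled DEX, 1 higher and 2 lower in light DAYi with DEX, 1 higher and 4 lower in dark bri1-116, and 3 higher and 1 lower in light bri1-116. A threshold of 1.5-fold gave 10 higher in light DAYi with DEX and 12 lower in dark bri1-116. A common sum without AT2G01021 gave 10 higher and 6 lower in light DAYi with DEX and 2 lower in light bri1-116. With at least 1 FPKM in either library, 3 members were higher in dark bri1-116, since the low members left the count. Other counts of higher or lower members stayed within 1.5 times. Exchange of the dark Col-0 and bri1-116 libraries gave 7 higher and 6 lower. A pseudocount of 0.1 FPKM moved 19 of 80 log2 ratios of the named members, which cannot change their sign, and centring moved 0. No paired analysis was possible because each group held 1 library and the labels give no shared replicate numbers. Depth limits the low members: XTH2 in the light, and XTH25 in light DAYi with DEX, were past 2-fold on 10 fragments or fewer on both sides.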
